A study of Homo sapiens with 8 samples.

Results

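The genes described here encode histones, the proteins around which DNA is wound in nucleosomes. They were taken as every row of the deposited expression table whose symbol begins with HIST1H, HIST2H, HIST3H, HIST4H, H1F, H2AF or H3F, with no expression filter, which gave 91 of 26443 rows that carry values. Of these, 70 are replication-dependent genes (HIST symbols), 16 are variant genes (H1F, H2AF and H3F symbols) and 5 are pseudogenes or antisense transcripts, which were counted apart. RNA was sequenced from C4-2B cells, a castration-resistant human prostate cancer line derived from LNCaP, after 7 days of treatment, with 2 libraries in each of 4 groups. The groups were DMSO, the solvent control; ENZ at 10 uM; EPZ6438 at 1 uM, called EPZ below; and both agents together, called Combination, for which the labels give no separate doses. Enzalutamide, for which ENZ is short, blocks the androgen receptor; EPZ6438, also named tazemetostat, blocks the methyltransferase EZH2, which acts on histone H3. All 8 libraries come from this line alone. Where the 2 libraries of a group originate, 1 culture or 2, is not stated, and the p-values reflect the spread between them, which may be technical.

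Replication-dependent histone genes supply the bulk of nucleosomal protein while DNA is copied. They lie in clusters, lack introns, and their mRNA usually ends in a stem-loop bound by the protein SLBP instead of a poly(A) tail, so the message appears in S phase and is destroyed when replication stops. Variant genes mostly lie outside these clusters, usually have introns and polyadenylated mRNA, are expressed outside S phase too, and encode proteins that replace the canonical ones at particular places in the genome. The classes are not cleanly parted: H1F0 and H1FX have 1 exon, H2AFJ lies close to HIST4H4, and H2AFX carries a stem-loop (below).

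The unit is FPKM, a count of fragments divided by gene length and library size, as the authors deposited it. Between 11088758 and 19241439 fragments per library fell in genes, as recovered from the steps between the FPKM values. As an alternative scaling, deposited values were divided by median-of-ratios size factors. These were 1.05 and 1.04 (DMSO), 1.05 and 1.05 (ENZ), 0.997 and 1.01 (EPZ) and 0.910 and 0.932 (Combination). Relative to that scaling, the deposited values set Combination low against the other groups. Differences were tested with limma on log2(FPKM + 1) in the 11874 genes whose mean reached 1 FPKM, with Benjamini-Hochberg adjustment at 0.05, and every change below is a log2 difference on that scale, which understates the change of low genes. Of the histone genes 44 reached that mean: 32 replication-dependent, 9 variant and 3 pseudogene or antisense rows. Another 19 were listed at 0 in every library. Among them were H3F3A and the near-identical gene copies HIST2H3A and HIST2H3C, HIST2H4A and HIST2H4B, and HIST2H2AA3 and HIST2H2AA4. A value of 0 there may be a failed estimate and says nothing about their expression. H2AFB1, H2AFB2, H2AFB3, H1FNT and H1FOO, variant genes known from germ cells, were listed at 0 too. H2AFZ, H2AFY, H2AFY2, H3F3B, H1FX, HIST1H2BD, HIST1H3D and HIST2H2BF overlap other annotated genes, whose fragments cannot be told apart from theirs with certainty. Just above the filter lay HIST1H3B, with a mean of 1.02 FPKM, and HIST2H3D, at 1.16; just below it lay HIST1H2AE, at 0.767, and HIST1H4D, at 0.761. All 8 luminal prostate markers looked up were expressed and summed to 1653 to 1685 FPKM (DMSO), 883 to 887 (ENZ), 4009 to 4050.2 (EPZ) and 986 to 1012 (Combination), with KLK3 the most abundant. Fibroblast markers summed to 2.26 to 2.43, 3.35 to 4.47, 2.88 to 2.92 and 10.7 to 10.8 FPKM in the same order; nearly all of it was COL1A1, called higher with ENZ (0.55) and Combination (1.78), while COL1A2 was at 0. Leukocyte and basal markers summed to at most 0.538 and 0.184 FPKM in any library, endothelial markers to 0.286 to 0.857 and neuroendocrine markers to 0.316 to 1.31, the last highest with EPZ. The part of these shifts in the histone results was not tested.

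The stem-loop that marks a replication-dependent message is shown because it is the feature by which such messages are made and destroyed. It is a run of 16 bases with a stem of paired bases and a loop of 4. A fixed pattern of it, with the loop TTTA or TTTC, was looked for in GENCODE release 29 transcripts (GRCh38). Anywhere in a transcript the pattern was found in 37 of 57133 genes, 30 of them histone rows of the set described here. For the members the search was then limited to the stretch after the stop codon. Of the 70 replication-dependent genes 36 have at least 40 annotated bases after the stop codon, and 28 of these carry a stem-loop, between 22 and 67 bases after the stop codon. Among the 16 variant genes, 15 have that much annotated sequence and 1 carries a stem-loop, H2AFX. A gene without a match may still have a stem-loop that departs from the pattern or lies beyond its annotated end. The sequences below are DNA, read 5′ to 3′ on the coding strand, with the loop in capitals. The first is that of 17 genes, among them HIST2H2BE, HIST1H2AC and HIST1H3H; the second that of 5, among them HIST1H2BC and HIST1H2BD; the third that of 5 H4 genes, among them HIST1H4H and HIST1H4E; the fourth that of HIST1H2AG; and the last that of H2AFX.
17 replication-dependent genes: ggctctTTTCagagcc
5 replication-dependent genes: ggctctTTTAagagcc
5 H4 genes: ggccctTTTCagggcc
HIST1H2AG: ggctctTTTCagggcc
H2AFX: ggccctTTTAagggcc

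Of the 28 replication-dependent genes with a stem-loop, 19 have a transcript that runs on for at least 100 bases beyond it, and so does H2AFX, by 1044 bases. HIST2H2BE, described below, has its stem-loop 56 bases after the stop codon and 1729 annotated bases beyond it. These longer ends are what a polyadenylated form of such a message carries. Whether polyadenylated RNA was selected for the libraries is not stated in the sources used here, and the deposited values do not separate the stem-loop form of a message from the tailed one.

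Promoters were compared in RefSeq's windows of 300 bases (250 before to 50 after each start, GRCh38.p14), which exist for 65 replication-dependent genes (69 windows) and 14 variant genes (19 windows). Motifs were searched on both strands. Windows of facing H2A and H2B genes can overlap, and HIST1H2BD and HIST1H2BK have more than 1 nearly identical window. The same motif can therefore be counted more than once in these shares. TATAAA, the TATA box, was in 66.7% of replication-dependent, 21.1% of variant and 11.5% of all 35116 windows, and CCAAT in 85.5%, 73.7% and 34.6%. The octamer ATTTGCAT, to which the factor POU2F1 binds, was in 39.1%, 5.26% and 1.77%, and in 15 of 20 H2B windows. AAACACA, an element of linker histone promoters, was in 6 of 6 replication-dependent H1 windows against 5.64% of all. TTTGGCGC and TTTCCCGC, forms of the E2F site, were in 0 and 1 of the 69 replication-dependent windows and in none of the variant ones, with 0.652% and 1.63% over all windows. The 160 bases before the start are printed for the H2B genes with the highest change with EPZ and with the most unequal response to the agents (HIST2H2BE and HIST1H2BJ), and for the variant genes with the lowest changes (H2AFX and H2AFZ). Capitals mark TATAAA, ATTTGCAT, and CCAAT or its complement ATTGG. All come from RefSeq's GRCh38.p14 table and are read 5′ to 3′ on the gene's strand.
HIST2H2BE, chr1:149886683-149886842, minus strand: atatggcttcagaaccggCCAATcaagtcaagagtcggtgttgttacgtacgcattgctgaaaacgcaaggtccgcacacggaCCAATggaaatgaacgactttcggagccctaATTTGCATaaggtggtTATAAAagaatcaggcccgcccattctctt
HIST1H2BJ, chr6:27132796-27132955, minus strand: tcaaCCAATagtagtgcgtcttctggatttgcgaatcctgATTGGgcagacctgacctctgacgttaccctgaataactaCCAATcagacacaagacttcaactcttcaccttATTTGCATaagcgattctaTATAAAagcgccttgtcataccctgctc
H2AFX, chr11:119095466-119095625, minus strand: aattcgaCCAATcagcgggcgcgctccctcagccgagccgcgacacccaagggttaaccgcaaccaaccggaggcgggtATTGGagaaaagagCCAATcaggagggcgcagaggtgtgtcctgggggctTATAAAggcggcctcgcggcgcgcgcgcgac
H2AFZ, chr4:99950276-99950435, minus strand: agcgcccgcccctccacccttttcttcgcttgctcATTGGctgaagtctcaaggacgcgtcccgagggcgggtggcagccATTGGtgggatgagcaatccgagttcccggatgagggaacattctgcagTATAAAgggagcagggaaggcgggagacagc

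The H2B promoters share their order: CCAAT boxes, then the octamer 46 and 47 bases before the start, then TATAAA 30 and 28 bases before it. The H2AFX promoter has TATAAA 31 bases before the start and CCAAT boxes on both strands, but no octamer, and H2AFZ has the TATA box at the same distance. A match describes letters only; nothing here shows a factor bound.

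Summed over genes, replication-dependent transcripts were most abundant with EPZ, and variant transcripts were less abundant in every treated group than in DMSO. The replication-dependent genes summed to 470.2 ± 11.9 FPKM (SD, n = 2 here and below) under DMSO, 523 ± 6.18 under ENZ, 949 ± 31.6 under EPZ and 634 ± 18.5 under Combination, which is 1.11, 2.02 and 1.35 times the DMSO level. The variant genes summed to 1247 ± 35.7, 991 ± 23.5, 849.95 ± 23.3 and 529 ± 18.2 FPKM, or 0.794, 0.681 and 0.424 times DMSO. As a share of the summed FPKM of all rows, replication-dependent genes made up 0.149% (DMSO), 0.187% (ENZ), 0.324% (EPZ) and 0.286% (Combination), and variant genes 0.394%, 0.354%, 0.290% and 0.239% in the same order. The ratio of replication-dependent to variant FPKM was 0.363 and 0.392 (DMSO), 0.523 and 0.532 (ENZ), 1.11 and 1.12 (EPZ), and 1.202 and 1.19 (Combination). No groups overlapped in that ratio, and with both agents it stood just above its EPZ level while both sums were lower than with EPZ. These are sums over chosen genes and carry no test. In every group most of the replication-dependent sum came from the few genes listed below as known to yield tailed mRNA too. In EPZ most of it came from HIST1H1C, HIST1H2BK and HIST2H2BE alone, so the sums mainly follow such genes. Fewer cells that express a gene and less RNA per cell cannot be told apart in bulk samples.

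By family, the EPZ sums were 2.60 times DMSO for H1, 1.43 for H2A, 1.99 for H2B, 1.91 for H3 and 2.35 for H4 among replication-dependent genes. The H1 sum was 94.5 FPKM in DMSO and 245.8 in EPZ, and the H4 sum 33.6 and 78.9. HIST1H1C made up most of the H1 sum and HIST1H4H most of the H4 sum in every group (values below). The H1 and H4 ratios therefore mainly follow these genes. With Combination the same family ratios were 1.38, 1.39, 1.13, 1.80 and 2.15, so the H2A, H3 and H4 sums stood near their EPZ level and the H1 and H2B sums well below it. Single genes did not all keep their EPZ level. Against EPZ, 2 of 8 H2A genes tested were higher and 5 lower with Combination. Of 5 H3 genes 1 was higher and 2 lower, and of 5 H4 genes 1 and 2, where 29.2% of all genes were higher and 43.7% lower. HIST2H3D and HIST1H4I, among these, passed the filter only through treated libraries. As shares of all FPKM, H2A, H3 and H4 were higher with Combination (0.0599%, 0.0245% and 0.0326%) than with EPZ (0.0465%, 0.0196% and 0.0269%), and H1 and H2B lower (0.0589% and 0.110% against 0.0840% and 0.147%). The H2B to H2A ratio of replication-dependent FPKM was 2.34 and 2.22 (DMSO), 1.95 and 2.36 (ENZ), 3.25 and 3.08 (EPZ), and 1.79 and 1.90 (Combination). Among variant families the Combination sums were 0.656 times DMSO for H1, 0.306 for H2A and 0.712 for H3. As shares of all FPKM, variant H1 was 0.0966% with DMSO and 0.0906% with Combination, and variant H3 0.0314% and 0.0319%, so variant H3 was not lower on that scale; variant H2A was 0.266% and 0.116%. H2AFX supplied 36.4% and 37.5% of variant H2A FPKM (DMSO), 29.6% and 27.6% (ENZ), 24.7% and 24.5% (EPZ), and 10.4% and 10.9% (Combination). Without H2AFX the variant sum with Combination was 0.536 times DMSO.

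**Figure D1:**
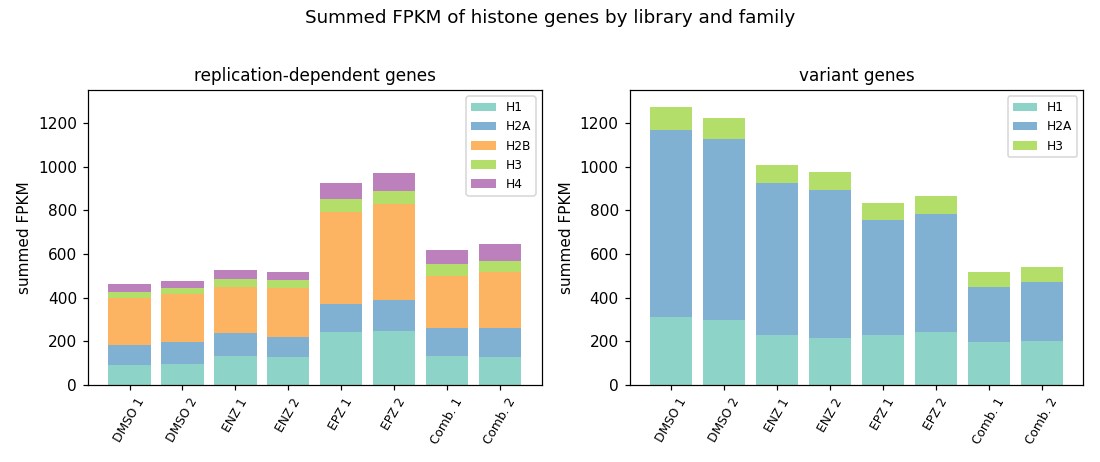
Stacked bars give the summed FPKM (y axis) of replication-dependent genes (left) and variant genes (right) in each of the 8 libraries (x axis), coloured by histone family. The EPZ libraries are highest on the left, at a mean of 949 FPKM, and the Combination libraries lowest on the right, at 529 FPKM.

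Gene by gene and as deposited, most tested genes of the classes went opposite ways with EPZ. The variant side of this depends on the scaling, as given below. Of the 32 replication-dependent genes tested, 22 rose and 2 fell with EPZ, with a median change of 0.62, while of the 9 variant genes 1 rose and 7 fell (median -0.29). Over all 11874 genes 23.4% rose and 32.4% fell with EPZ (median -0.046). The replication-dependent genes that fell with EPZ, HIST2H2AC and HIST1H4C, both lost the call without the first DMSO or the second EPZ library, leaving 0. With ENZ 9 replication-dependent genes rose and 6 fell (median 0.17), and 1 variant gene rose and 5 fell (median -0.21), where 27.9% of all genes rose and 28.8% fell (median 0.0049). The replication-dependent calls with ENZ are near that background. With Combination 16 replication-dependent genes rose and 10 fell (median 0.31), and 1 variant gene rose and 7 fell (median -0.54), where 33.3% of all genes rose and 47.4% fell (median -0.15). The share of replication-dependent genes that rose with EPZ is above that of all genes, and, as deposited, so is the share of variant genes that fell with each treatment. These 3 comparisons share the DMSO libraries.

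3 of the replication-dependent genes tested had a DMSO mean under 1 FPKM and reached the filter through treated libraries; without them 7 of 29 rose and 6 fell with ENZ, 20 and 2 with EPZ, and 13 and 10 with Combination; these counts describe the tested genes only. Quantile normalization left the replication-dependent splits near these values (19 against 2 with EPZ, 14 against 11 with Combination). It moved the variant splits to 2 rising and 2 falling with ENZ, 1 and 3 with EPZ, and 3 and 4 with Combination, where 24.8%, 25.8% and 40.5% of all genes fell. The median of all genes with Combination shifted by 0.152 under median-of-ratios scaling and by 0.127 under quantile normalization. Falls smaller than that depend on the scaling, and so do some larger ones. After quantile normalization the Combination falls of H2AFJ and H2AFV lost their call, and H3F3B and HIST1H2BK stood above DMSO (values below).

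**Figure D2:**
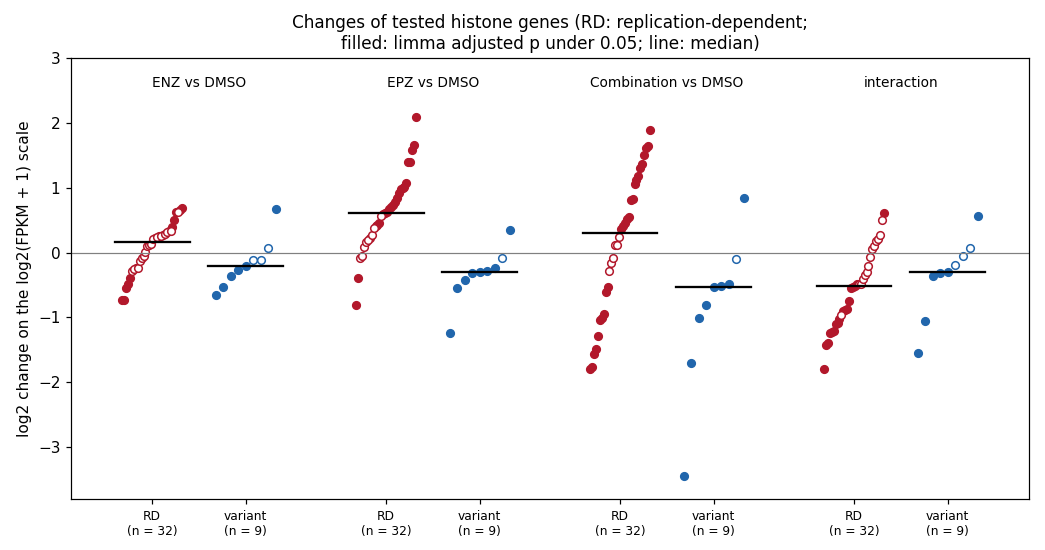
Each point is the log2 change (y axis) of a tested histone gene, replication-dependent (RD) or variant, in 3 comparisons with DMSO and in the interaction; filled points have a limma adjusted p under 0.05 and lines are medians. With EPZ the replication-dependent median is 0.62 and the variant median -0.29; with Combination replication-dependent genes spread from -1.80 to 1.89.

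H2AFX encodes H2A.X, the H2A variant that is phosphorylated around DNA double-strand breaks. At chr11:119093854-119095467 (hg38, minus strand), it measured 311 and 310.0 FPKM (DMSO), 206 and 187 (ENZ), 129.8 and 132 (EPZ) and 25.9 and 29.2 (Combination). The groups did not overlap, and every treated library lay below both DMSO libraries. It changed by -0.66 (SE 0.069, adjusted p = 4.62e-05) with ENZ, -1.24 (SE 0.069, adjusted p = 1.10e-06) with EPZ and -3.45 (SE 0.069, adjusted p = 2.37e-10) with Combination, the lowest Combination change of any histone gene tested. The Combination change lay below the sum of the single-agent changes, with an interaction of -1.55 (SE 0.097, adjusted p = 4.42e-06).

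H2AFZ and H2AFV encode the H2A.Z proteins, which flank promoters and are exchanged into nucleosomes by dedicated remodelling complexes. H2AFZ, the more abundant per length, measured 336 and 314 FPKM (DMSO), 298 and 302 (ENZ), 219 and 225 (EPZ) and 95.8 and 102 (Combination). Its EPZ and Combination libraries lay below DMSO, and ENZ lay just under it without passing the test (-0.11, adjusted p = 0.105; 0.11 after quantile normalization, -0.13 and called after median-of-ratios scaling, adjusted p = 0.0456). H2AFZ changed by -0.55 (SE 0.055, adjusted p = 3.50e-05) with EPZ and -1.71 (SE 0.055, adjusted p = 2.48e-09) with Combination, with an interaction of -1.05 (adjusted p = 1.09e-05). H2AFV measured 31.2 and 31.3 FPKM (DMSO), 31.2 and 34.8 (ENZ), 24.8 and 25.2 (EPZ) and 20.8 and 21.7 (Combination). DMSO and ENZ overlapped for H2AFV, and the other groups were lower. Its changes were -0.31 with EPZ and -0.54 with Combination (adjusted p = 0.00267 and 2.57e-05), but -0.15 and -0.12, neither called, after quantile normalization.

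H2AFY and H2AFY2 encode the macroH2A proteins, which carry a large additional domain and are enriched on silent chromatin, and they moved in opposite directions with Combination. H2AFY measured 135 and 133 FPKM (DMSO), 117 and 115 (ENZ), 112 and 116 (EPZ) and 72.4 and 80.7 (Combination). All treated libraries were lower than DMSO, ENZ and EPZ overlapped, and Combination was lowest. It fell by 0.80 with Combination (adjusted p = 7.54e-07). Its single-agent changes were -0.21 with ENZ (adjusted p = 0.0148; -0.20 and -0.22, not called, without the first or second DMSO library, and 0.065 after quantile normalization) and -0.24 with EPZ (adjusted p = 0.00791; not called without the first DMSO library, at -0.23, without the first EPZ library, at -0.21, or after quantile normalization, at -0.075). H2AFY2, much lower per length, measured 4.46 and 4.12 FPKM (DMSO), 8.07 and 6.89 (ENZ), 5.75 and 5.78 (EPZ) and 8.09 and 8.95 (Combination). As deposited it was the only variant gene called higher than DMSO, by 0.68 (SE 0.086, adjusted p = 1.48e-04) with ENZ, 0.36 (SE 0.086, adjusted p = 0.00627) with EPZ and 0.85 (SE 0.086, adjusted p = 7.77e-06) with Combination. H2AFY2 overlaps AIFM2 in the annotation, and the counting's strand setting is not stated in the sources used here.

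H2AFJ, an H2A variant gene expressed outside S phase, measured 38.5 and 35.3 FPKM (DMSO), 36.5 and 31.7 (ENZ), 34.3 and 35.7 (EPZ) and 25.7 and 25.5 (Combination). DMSO, ENZ and EPZ overlapped, and Combination was lower than all of them, at -0.51 (SE 0.075, adjusted p = 1.16e-04) against DMSO, but at -0.027 and uncalled after quantile normalization. Among the variant linker histones, H1FX, which encodes H1X, measured 199 and 191 FPKM (DMSO), 141 and 128 (ENZ), 143 and 149 (EPZ) and 95.4 and 98.2 (Combination). Its groups did not overlap, with changes of -0.53, -0.42 and -1.004 (adjusted p = 6.99e-05, 3.07e-04 and 1.46e-07) with ENZ, EPZ and Combination. Its antisense row H1FX-AS1, on the other strand, rose by 0.69 with Combination (adjusted p = 1.50e-05), and the fragments of overlapping rows cannot be told apart without strand. H1F0 encodes the linker histone of resting and differentiated cells and measured 115 and 107 FPKM (DMSO), 86.6 and 85.9 (ENZ), 86.3 and 94.2 (EPZ) and 103 and 104 (Combination). It fell with each single agent, by 0.36 with ENZ (adjusted p = 7.44e-04) and by 0.29 with EPZ (adjusted p = 0.00234), neither called after quantile normalization (-0.095 and -0.11). In Combination it stood just below DMSO (-0.092, adjusted p = 0.176), and above it after median-of-ratios scaling (0.085) and quantile normalization (0.57). As deposited, H1F0 was the only variant gene tested with a positive interaction past the threshold, at 0.56 (SE 0.084, adjusted p = 6.99e-04).

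H3F3B encodes the replacement histone H3.3, which is laid down outside replication at active genes and at telomeres, and measured 102 and 96.7 FPKM (DMSO), 82.5 and 82.5 (ENZ), 78.8 and 83.3 (EPZ) and 69.2 and 72.1 (Combination). DMSO was highest, ENZ and EPZ overlapped, and Combination was lowest. The changes were -0.26, -0.29 and -0.49 (adjusted p = 0.00273, 0.00167 and 1.80e-05), but after quantile normalization the single-agent changes were -0.0073 and -0.10, uncalled, and that with Combination was 0.20 and called higher (adjusted p = 0.00326). H3F3A encodes the same protein and is listed at 0, so no level of H3.3 mRNA as a whole can be given. H3F3C, a primate copy, was detected at up to 0.127 FPKM and was not tested.

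**Figure D3:**
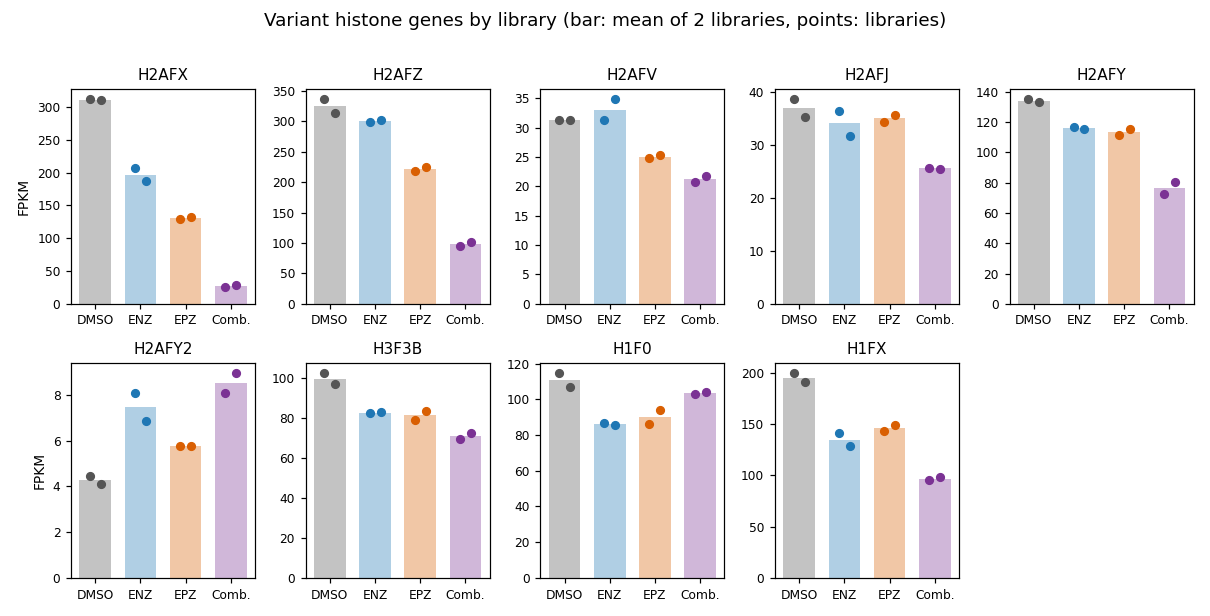
Bars are group means and points the 2 libraries of each group, in FPKM on a linear axis from 0, for the 9 variant histone genes tested. H2AFX falls from 311 and 310.0 FPKM in DMSO to 25.9 and 29.2 in Combination, and H2AFY2 is the one panel in which the DMSO bar is lowest.

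Linker histones bind the DNA between nucleosomes. HIST1H1C, which encodes H1.2, had the highest mean FPKM of the replication-dependent genes and measured 86.5 and 90.7 FPKM (DMSO), 128 and 125 (ENZ), 232 and 238 (EPZ) and 127 and 126 (Combination). EPZ was above all other groups, and ENZ and Combination overlapped at an intermediate level. It changed by 0.51 (SE 0.050, adjusted p = 3.42e-05) with ENZ, 1.397 (SE 0.050, adjusted p = 9.73e-08) with EPZ and 0.51 (SE 0.050, adjusted p = 5.85e-06) with Combination, and the difference of Combination from ENZ was 0.0053 (adjusted p = 0.929). HIST1H1E, encoding H1.4, measured 2.73 and 2.82 FPKM (DMSO), 1.98 and 1.46 (ENZ), 6.42 and 7.47 (EPZ) and 2.44 and 1.79 (Combination). It rose by 1.07 with EPZ (adjusted p = 1.00e-04) and changed by -0.48 with ENZ (adjusted p = 0.00994), a call that ended without the second ENZ library (-0.34, adjusted p = 0.0705). HIST1H1B, encoding H1.5, measured 3.20 and 2.81 FPKM (DMSO), 1.31 and 1.51 (ENZ), 3.58 and 3.57 (EPZ) and 0.131 and 0.232 (Combination). DMSO and EPZ were the high groups, with EPZ uncalled (0.19, adjusted p = 0.113), and it changed by -0.73 with ENZ and -1.76 with Combination (adjusted p = 1.87e-04 and 8.16e-08). The 3 linker genes tested thus had 3 patterns with Combination: higher, uncalled and lower.

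H2B pairs with H2A on the nucleosome. HIST2H2BE, at chr1:149884459-149886652 (hg38, minus strand), had the highest EPZ change of all histone genes tested and measured 30.0 and 31.3 FPKM (DMSO), 32.9 and 34.1 (ENZ), 128 and 140.3 (EPZ) and 64.3 and 70.6 (Combination). DMSO and ENZ did not differ beyond the test (0.13, adjusted p = 0.136), EPZ was highest and Combination lay between. Its changes were 2.09 (SE 0.067, adjusted p = 5.41e-08) with EPZ and 1.11 (SE 0.067, adjusted p = 1.69e-07) with Combination, with an interaction of -1.10 (SE 0.095, adjusted p = 2.77e-05). HIST1H2BC measured 11.99 and 11.6 FPKM (DMSO), 13.98 and 14.8 (ENZ), 37.6 and 36.8 (EPZ) and 29.6 and 31.8 (Combination), with changes of 1.58 with EPZ and 1.31 with Combination (adjusted p = 1.49e-07 and 2.88e-08). HIST1H2BD measured 13.8 and 13.0 FPKM (DMSO), 21.0 and 21.3 (ENZ), 37.0 and 36.7 (EPZ) and 40.7 and 38.9 (Combination). Its treated libraries all exceeded DMSO, and it rose by 0.62, 1.39 and 1.5 with ENZ, EPZ and Combination (adjusted p = 2.17e-05, 1.86e-07 and 6.76e-09). HIST2H2BF measured 0.425 and 0.600 FPKM (DMSO), 1.17 and 1.63 (ENZ), 2.07 and 2.01 (EPZ) and 2.14 and 2.75 (Combination). It reached the filter only through treated libraries, so its changes of 0.66, 1.01 and 1.18 with ENZ, EPZ and Combination are given as a description.

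A pair of H2B genes at chr6:27125897-27147515 (hg38), in the middle of the chromosome 6 clusters, rose with EPZ and were lowest with Combination. HIST1H2BJ measured 12.4 and 12.6 FPKM (DMSO), 9.17 and 7.44 (ENZ), 21.0 and 23.3 (EPZ) and 3.34 and 3.81 (Combination). No groups overlapped, EPZ was the highest and Combination the lowest, with changes of -0.54 (SE 0.097, adjusted p = 0.00117) with ENZ, 0.77 (SE 0.097, adjusted p = 1.44e-04) with EPZ and -1.56 (SE 0.097, adjusted p = 2.10e-07) with Combination. HIST1H2BK measured 131 and 139 FPKM (DMSO), 117 and 129 (ENZ), 177 and 181 (EPZ) and 84.3 and 91.9 (Combination). EPZ was again highest and Combination lowest, and DMSO lay above ENZ by less than the test's threshold (-0.13, adjusted p = 0.123; 0.16 after quantile normalization and -0.20, called, without the second ENZ library). HIST1H2BK rose by 0.40 with EPZ (adjusted p = 7.12e-04) and changed by -0.61 with Combination (adjusted p = 1.33e-05), but by 0.082 and uncalled after quantile normalization. Over all genes 23.4% rose and 32.4% fell with EPZ, and 33.3% rose and 47.4% fell with Combination. Of the 11 H2B genes tested, 1 of which, HIST2H2BF, passed the filter only through treated libraries, 9 rose and none fell with EPZ. With Combination 5 of the 11 rose and 3 fell. Among the others, HIST1H2BF rose with EPZ by 0.92 (adjusted p = 3.29e-05) and was at -0.076 with Combination (adjusted p = 0.455; 0.051 after median-of-ratios scaling). HIST1H2BO was at 0.16 with EPZ (adjusted p = 0.512; -0.23 without the second DMSO library) and fell with Combination (-1.01, adjusted p = 9.84e-04); both were named after their values were seen.

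Among H2A genes HIST1H2AC was the most abundant and measured 41.8 and 44.3 FPKM (DMSO), 58.9 and 50.5 (ENZ), 62.7 and 71.4 (EPZ) and 91.4 and 90.3 (Combination). All treated libraries exceeded DMSO, ENZ and EPZ did not overlap, and Combination was highest, with changes of 0.34, 0.63 and 1.06 (adjusted p = 0.00725, 2.06e-04 and 1.17e-06). The ENZ call ended without the first DMSO library (0.29, adjusted p = 0.0506). HIST3H2A measured 27.7 and 27.2 FPKM (DMSO), 25.4 and 21.2 (ENZ), 35.6 and 40.3 (EPZ) and 18.6 and 19.0 (Combination), highest in EPZ (0.45, adjusted p = 0.00194) and lowest in Combination (-0.52, adjusted p = 3.06e-04; -0.13 and uncalled after quantile normalization). HIST1H2AG measured 7.03 and 8.71 FPKM (DMSO), 5.63 and 5.90 (ENZ), 7.73 and 7.01 (EPZ) and 2.19 and 2.09 (Combination). Its DMSO and EPZ libraries overlapped and its Combination libraries were far lower, at -1.49 (SE 0.096, adjusted p = 2.55e-07); its ENZ change of -0.39 (adjusted p = 0.00714) was -0.25 and uncalled without the second DMSO library, and uncalled with voom on the recovered fragments (-0.46). HIST1H2AL measured 2.21 and 2.41 FPKM (DMSO), 1.10 and 0.879 (ENZ), 1.83 and 2.57 (EPZ) and 0.331 and 0.390 (Combination), changing by -0.73 with ENZ (adjusted p = 8.16e-04) and -1.28 with Combination (adjusted p = 5.40e-06). HIST1H2AM measured 6.12 and 6.88 FPKM (DMSO), 7.25 and 7.07 (ENZ), 10.4 and 10.1 (EPZ) and 7.99 and 10.0 (Combination) and rose by 0.59 with EPZ (adjusted p = 7.35e-04) and 0.41 with Combination (adjusted p = 0.00299; uncalled with voom on the recovered fragments, a fit chosen after seeing the data, at 0.44). HIST1H2AK measured 0.705 and 3.21 FPKM (DMSO), 3.27 and 2.99 (ENZ), 4.27 and 3.41 (EPZ) and 7.67 and 7.17 (Combination), and the first DMSO library, with 5 fragments, was far below the second, with 30. It rose by 1.65 with Combination (adjusted p = 7.56e-04), while its EPZ call (0.85, adjusted p = 0.0438) ended without any one library other than the second DMSO one (0.19 without the first DMSO library). HIST1H2AK and HIST1H2AL lie inside the annotated span of HIST1H2BN, and HIST1H2AM overlaps HIST1H3J, so their fragments cannot be told apart with certainty.

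Many H2A and H2B genes face each other across a common promoter region. Of 11 such pairs (starts at most 1000 bases apart on opposite strands) 6 had both genes tested. HIST2H2AC and HIST2H2BE, whose starts are 323 bases apart, received opposite calls; their shared stretch includes the HIST2H2BE promoter printed above. HIST2H2AC measured 2.23 and 2.37 FPKM (DMSO), 1.54 and 2.10 (ENZ), 1.41 and 1.64 (EPZ) and 0.831 and 0.420 (Combination), falling by 1.03 with Combination (adjusted p = 6.86e-05) while HIST2H2BE rose. Its EPZ change of -0.39 (adjusted p = 0.0394) lost its call without any one DMSO or EPZ library (-0.32 without the first EPZ library). HIST1H2AM and HIST1H2BO, 314 bases apart, also received opposite calls with Combination (0.41 and -1.01), but not with EPZ. The other tested pairs got no opposite calls: HIST1H2AC and HIST1H2BC both rose with Combination, HIST1H2AG and HIST1H2BJ both fell with it (-1.49 and -1.56), and HIST1H2AI and HIST1H2BL both rose with EPZ (0.73 and 0.61; the latter uncalled, at 0.45, without the first EPZ library). Of HIST3H2A and HIST3H2BB the first was called and the second was not (0.37 with EPZ, adjusted p = 0.185).

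Canonical H3 and H4 form the core tetramer of the nucleosome. HIST1H3H, the most abundant H3 gene, measured 16.0 and 18.1 FPKM (DMSO), 20.7 and 19.4 (ENZ), 32.7 and 36.6 (EPZ) and 19.5 and 17.6 (Combination). EPZ exceeded all other groups, with a change of 0.98 (SE 0.085, adjusted p = 1.43e-05), and Combination overlapped both DMSO and ENZ (0.11, adjusted p = 0.241; called at 0.28 and 0.46 after median-of-ratios scaling and quantile normalization). HIST1H3E measured 6.32 and 5.76 FPKM (DMSO), 9.88 and 10.8 (ENZ), 14.4 and 11.7 (EPZ) and 24.5 and 25.7 (Combination). All treated libraries exceeded DMSO, and Combination was the highest, by 1.89 (SE 0.094, adjusted p = 4.11e-08), against 0.69 with ENZ and 0.99 with EPZ; the interaction was 0.21 (adjusted p = 0.243). HIST1H3D rose with EPZ by 0.71 (adjusted p = 0.00288) and with Combination by 0.83 (adjusted p = 4.91e-04), and HIST1H3B fell with Combination by 0.94 (adjusted p = 0.00469), from 10 and 11 fragments in DMSO to 2 and 1.

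Among H4 genes, which all encode nearly or exactly the same protein, HIST1H4H measured 19.8 and 19.2 FPKM (DMSO), 24.7 and 22.2 (ENZ), 60.03 and 68.0 (EPZ) and 49.9 and 53.8 (Combination). EPZ was highest and Combination next, with changes of 1.66 (SE 0.077, adjusted p = 3.75e-07) and 1.37 (SE 0.077, adjusted p = 1.05e-07). Its ENZ change of 0.25 (adjusted p = 0.0190) became 0.27, 0.23 and 0.18, uncalled, without the first DMSO, second DMSO or first ENZ library. HIST1H4E measured 2.41 and 2.61 FPKM (DMSO), 3.85 and 3.04 (ENZ), 4.67 and 4.51 (EPZ) and 8.25 and 11.5 (Combination) and rose by 0.67 with EPZ (adjusted p = 0.00238) and 1.62 with Combination (adjusted p = 1.90e-06). HIST1H4C went the other way and measured 8.98 and 4.80 FPKM (DMSO), 7.05 and 9.06 (ENZ), 3.89 and 2.87 (EPZ) and 1.46 and 0.940 (Combination). Combination was lowest and EPZ below DMSO and ENZ, which overlapped; the changes were -0.81 with EPZ (adjusted p = 0.0151) and -1.80 with Combination (adjusted p = 4.92e-05). The DMSO libraries of HIST1H4C were unlike, and its EPZ call ended without the first of them (-0.42) or the second EPZ library (-0.64). HIST1H4I, which reached the filter only through treated libraries, at 0.817 ± 0.16 FPKM in DMSO, was called higher in all 3 comparisons (0.39, 0.42 and 0.46), and each call ended without the first DMSO library (0.30, 0.33 and 0.37) or the first library of the treated group (0.22, 0.29 and 0.36); that with ENZ also ended without the second DMSO library (0.49).

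**Figure D4:**
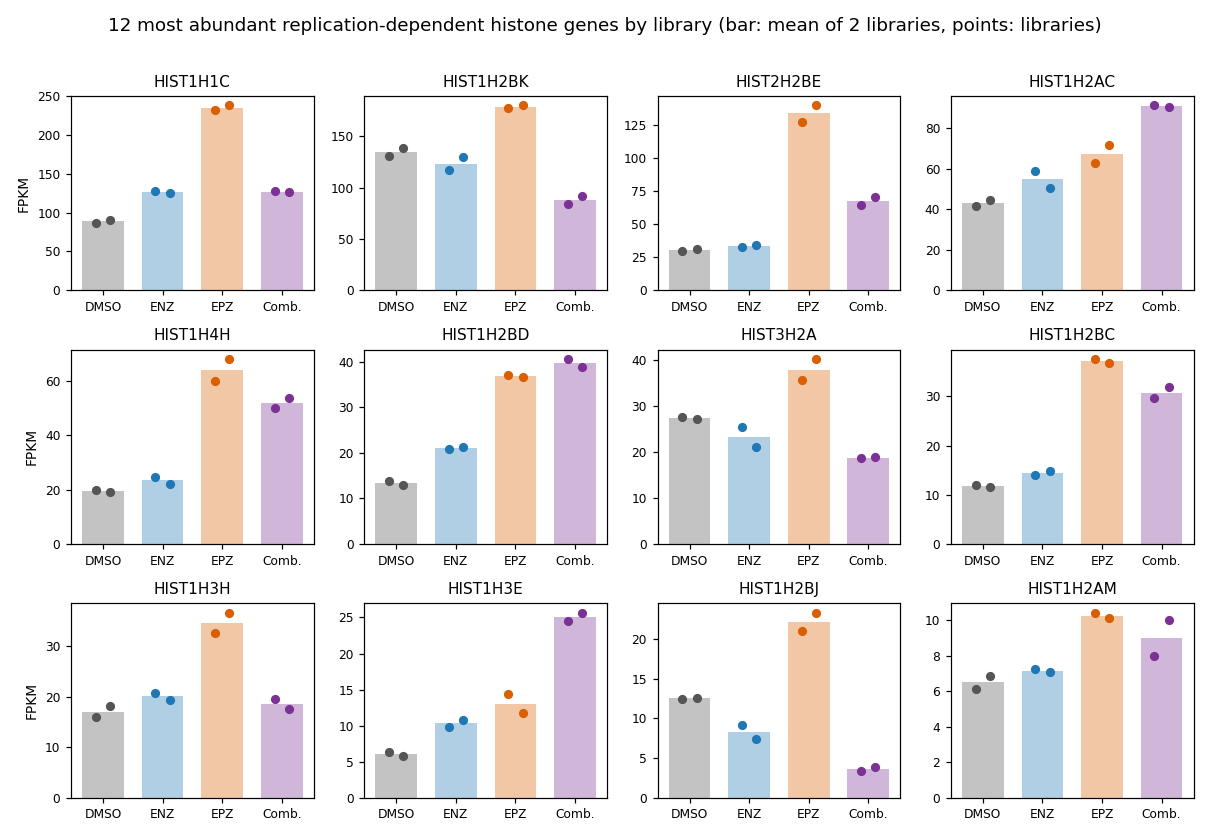
Bars are group means and points the 2 libraries of each group, in FPKM on a linear axis from 0, for the 12 replication-dependent genes with the highest mean FPKM. EPZ is the highest bar for 9 of them, and Combination for HIST1H2AC, HIST1H2BD and HIST1H3E; HIST1H2BK, HIST3H2A and HIST1H2BJ have their lowest bar in Combination.

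The replication-dependent genes under the filter rested on few fragments, and those named here were chosen after their values were seen. HIST1H1D, encoding H1.3, had 0 and 0 fragments (DMSO), 2 and 1 (ENZ), 2 and 0 (EPZ) and 10 and 13 (Combination). HIST3H3, a testis H3 gene, had 2 and 0 fragments (DMSO), 3 and 3 (ENZ), 3 and 2 (EPZ) and 13 and 11 (Combination), and HIST1H4D had 0 and 3 fragments (DMSO), 1 and 2 (ENZ), 5 and 12 (EPZ) and 9 and 12 (Combination). These were highest in Combination or, for the last, in both groups with EPZ. HIST1H3A was lowest in Combination, with 9 and 10 fragments (DMSO), 6 and 4 (ENZ), 5 and 5 (EPZ) and 1 and 0 (Combination). Counts this low give no fold change that can be relied on. HIST1H2BE had 1 and 1 fragments (DMSO), 7 and 2 (ENZ), 9 and 9 (EPZ) and 8 and 6 (Combination), higher in most treated libraries, and HIST1H2BG 8 and 4 fragments (DMSO), 0 and 0 (ENZ), 1 and 6 (EPZ) and 1 and 1 (Combination).

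The loci held different numbers of genes that rose and fell with Combination, to be read against all genes tested, of which 23.4% rose and 32.4% fell with EPZ and 33.3% rose and 47.4% fell with Combination. In the part of the chromosome 6 cluster between 25726132 and 26285638 (hg38), 12 of 34 replication-dependent genes were tested, and 10 rose and 1 fell with EPZ and 8 rose and 2 fell with Combination (median changes 0.96 and 0.95). Between 27125897 and 27147515, with 4 of 5 genes tested, 3 rose and none fell with EPZ, but 1 rose and 3 fell with Combination (median changes 0.41 and -1.05), 1 of these, HIST1H2BK, not after quantile normalization. The gene that rose with Combination there, also 1 of the 3 with EPZ, was HIST1H4I, which passed the filter only through treated libraries and whose calls ended without the first DMSO library and after quantile normalization. From 27807444 to 27893843, with 9 of 16 tested, 6 rose and none fell with EPZ, and 3 rose and 3 fell with Combination (medians 0.59 and 0.11). On chromosome 1 between 149782689 and 149887916, with 4 of 11 tested, 2 rose and 1 fell with EPZ, and 3 rose and 1 fell with Combination. HIST2H2BF and HIST2H3D, among the 4 tested there, passed the filter only through treated libraries; apart from them HIST2H2BE rose and HIST2H2AC fell. Loci were not tested against each other.

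**Figure D5:**
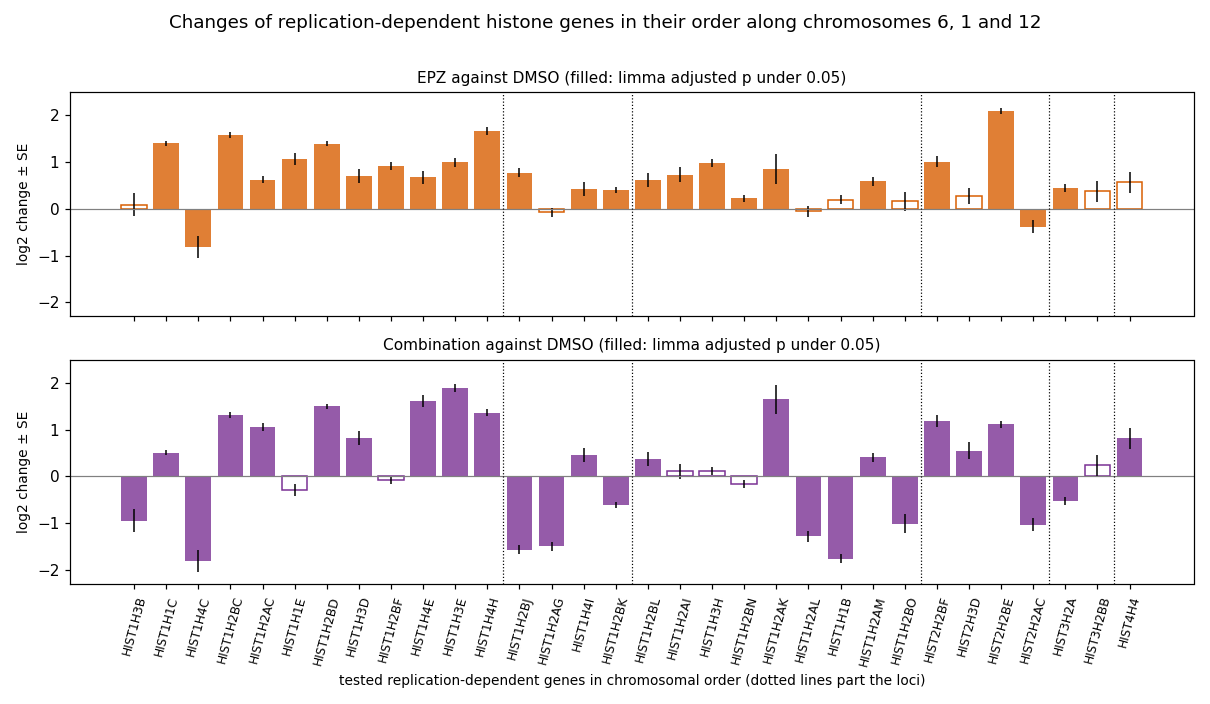
Bars are log2 changes with their standard errors (y axis) of the 32 tested replication-dependent genes in chromosomal order (x axis) for EPZ (top) and Combination (bottom) against DMSO, filled where the limma adjusted p is under 0.05; dotted lines part the loci. In the second group from the left, HIST1H2BJ and HIST1H2AG have Combination changes of -1.56 and -1.49, and neither falls past the threshold with EPZ.

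A list of 9 replication-dependent genes known from other cells to yield tailed mRNA as well (HIST1H1C, HIST1H2AC, HIST1H2BC, HIST1H2BD, HIST1H2BJ, HIST1H2BK, HIST2H2BE, HIST2H2AA3 and HIST4H4) had 8 members tested. With EPZ 7 rose and none fell, with a median of 1.08, and with Combination 6 rose and 2 fell, with a median of 0.94. Of the 24 replication-dependent genes tested that are not on the list, 15 rose and 2 fell with EPZ (median 0.52), and 10 rose and 8 fell with Combination (median 0.11). HIST2H2BF, HIST2H3D and HIST1H4I, among these 24, passed the filter only through treated libraries. All of them are among the 10 that rose with Combination, and HIST2H2BF and HIST1H4I are among the 15 that rose with EPZ. The counts of the 24 therefore only describe the tested genes. Over all genes 23.4% rose with EPZ and 33.3% with Combination. The list holds many of the genes with the highest FPKM. The part played by tailed messages in the changes was not tested.

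Combination was then set against each single agent. Against ENZ, 14 of the 32 replication-dependent genes were higher and 12 lower with Combination, and 1 of 9 variant genes was higher and 7 lower, where 25.3% of all genes were higher and 45.5% lower. After median-of-ratios scaling the variant split was 2 higher and 6 lower, and after quantile normalization 3 and 4. Of all genes 35.7% were then higher and 34.0% lower with the first scaling, and 35.6% and 34.3% with the second. Against EPZ, 4 replication-dependent genes were higher and 19 lower, and 2 variant genes higher and 7 lower. The replication-dependent split stayed at 4 and 19, of 29, without the genes that reached the filter only through treated libraries. Of all genes 29.2% were higher and 43.7% lower against EPZ. Quantile normalization gave 3 variant genes higher and 2 lower, where 34.6% of all genes were higher and 36.3% lower. HIST1H2BJ had the lowest value of the replication-dependent genes against EPZ, at -2.34 (SE 0.097, adjusted p = 3.10e-08), and HIST1H3E and HIST1H4E were higher than with EPZ (0.90 and 0.94, adjusted p = 1.43e-05 and 1.45e-04). H2AFX was lower in Combination than with either agent, by -2.79 against ENZ and -2.21 against EPZ (adjusted p = 1.49e-09 and 5.89e-09).

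The interaction term is Combination minus ENZ minus EPZ plus DMSO, and a value below 0 means that Combination lay under the sum of the single changes. Of the replication-dependent genes 1 was positive and 17 negative past the threshold, with a median of -0.52, and of the variant genes 1 and 5, with a median of -0.30. The replication-dependent counts stayed at 1 and 17, of 29, without the genes that reached the filter only through treated libraries. Over all genes 9.99% were positive and 29.6% negative, with a median of -0.12. Quantile normalization gave 3 and 14 for replication-dependent and 3 and 2 for variant genes, and median-of-ratios scaling gave 2 and 3 for the latter. Over all genes 20.7% were positive and 21.2% negative after quantile normalization, and 16.5% and 20.7% after median-of-ratios scaling. On those scalings the variant counts lie near these shares. Of the 5 variant calls 3 remained without the second DMSO, either EPZ or the first Combination library, the lost ones being H2AFJ and H2AFV. The lowest were HIST1H2BJ at -1.79 (SE 0.14, adjusted p = 1.39e-05), H2AFX, HIST1H2BO at -1.42 (adjusted p = 0.00342) and HIST1H1C at -1.39 (adjusted p = 1.72e-06). The positive replication-dependent gene was HIST1H4E, at 0.61 (adjusted p = 0.0313), which lost its call without the second DMSO, second ENZ, either EPZ or the second Combination library (0.39 without the last).

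Most listed genes that act on histones and on replication were called lower with EPZ and Combination, where 32.4% and 47.4% of all genes tested were lower (medians -0.046 and -0.15). After median-of-ratios scaling 27.9% and 40.1% of all genes were lower, and after quantile normalization 25.8% and 40.5%. All 18 S-phase and replication genes listed fell with EPZ and with Combination (medians -1.197 and -2.90), and 12 fell and 1 rose with ENZ (median -0.25), but 3 fell and 1 rose with ENZ after quantile normalization (median -0.076). RRM2, a subunit of ribonucleotide reductase, measured 101 ± 2.1 FPKM under DMSO, 76.1 ± 6.0 under ENZ, 42.6 ± 1.1 under EPZ and 3.51 ± 0.094 under Combination. The fall of this list and the rise of replication-dependent histone rows with EPZ were measured in the same libraries, and the part of one in the other was not tested. Of 22 genes of histone transcription and mRNA processing tested, 5 rose and 6 fell with ENZ (median -0.029), none rose and 14 fell with EPZ, and 3 rose and 17 fell with Combination (medians -0.35 and -0.46); median-of-ratios scaling gave 2 and 14 with EPZ and 5 and 12 with Combination, and quantile normalization 1 and 13, and 6 and 13. SLBP, which binds the stem-loop, measured 53.9 ± 0.88 FPKM under DMSO, 38.5 ± 2.1 under ENZ, 27.6 ± 1.4 under EPZ and 11.9 ± 1.1 under Combination, with changes of -0.48, -0.94 and -2.09 (adjusted p = 4.61e-04, 7.40e-06 and 4.28e-09). NPAT, the coactivator of replication-dependent histone genes, measured 5.01 ± 0.12 FPKM under DMSO, 6.65 ± 1.2 under ENZ, 3.77 ± 0.36 under EPZ and 3.76 ± 0.40 under Combination, with changes of 0.34, -0.34 and -0.34 with ENZ, EPZ and Combination, all called but none without the first DMSO library (0.36, -0.32 and -0.32).

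Histone chaperones escort new histones to DNA, and their lists are read against the same shares of all genes. All 10 genes listed for replication-coupled H3-H4 deposition fell with EPZ and with Combination (medians -0.90 and -1.66; 9 of 10 with EPZ after either other scaling), among them ASF1B, at -1.23 and -3.61 (adjusted p = 3.03e-07 and 6.44e-11), and CHAF1A, a subunit of chromatin assembly factor 1, at -0.92 and -1.73 (adjusted p = 3.85e-06 and 5.39e-09). Of 10 genes for H3.3 and CENP-A deposition 2 rose and 7 fell with each (medians -0.43 and -0.66). Those that fell included HJURP, the CENP-A chaperone, at -3.26 with Combination (adjusted p = 6.52e-10), while ATRX, which deposits H3.3 at repeats, rose by 1.08 (adjusted p = 1.16e-06). CENPA itself, the centromeric H3 variant gene whose symbol lies outside the rule, measured 19.0 ± 3.2 FPKM under DMSO, 15.5 ± 0.073 under ENZ, 7.55 ± 0.58 under EPZ and 1.42 ± 0.53 under Combination and changed by -3.05 with Combination (adjusted p = 3.03e-08). Of 14 genes for H2A.Z exchange and H2A-H2B chaperoning none rose and 10 fell with EPZ, and 1 rose and 11 fell with Combination (medians -0.35 and -0.66; with Combination 2 rose and 9 fell after quantile normalization, median -0.30), among them NAP1L1 at -2.41 and SSRP1 at -2.06 (adjusted p = 9.52e-10 and 6.37e-10). EZH2, the target of EPZ6438, measured 25.8 ± 0.55 FPKM under DMSO, 24.8 ± 2.0 under ENZ, 15.4 ± 0.94 under EPZ and 6.38 ± 0.14 under Combination, with changes of -0.054, -0.71 and -1.86 (adjusted p = 0.543, 3.78e-05 and 7.96e-09); that with ENZ was uncalled.

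Of the rows counted apart, HIST2H2BC, an H2B pseudogene, measured 1.34 and 1.69 FPKM (DMSO), 2.14 and 1.498 (ENZ), 2.46 and 1.62 (EPZ) and 1.96 and 2.31 (Combination) and was called in no comparison. H3F3AP4, a processed copy of H3F3A that overlaps another annotated gene, measured 0.778 and 0.804 FPKM (DMSO), 1.25 and 1.94 (ENZ), 0.963 and 1.10 (EPZ) and 1.19 and 1.26 (Combination), with H3F3A itself listed at 0. DMSO was lowest, and ENZ and Combination overlapped.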

How the data were processed

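RNA of 8 libraries (4 groups of 2) was sequenced on an Illumina instrument from an NEBNext Ultra library kit, per the labels' protocols. The authors deposited 1 table of FPKM values, made with STAR on hg38 per the submitters' processing notes; the counting tool, its strand setting and the annotation are not stated in the sources used here. Values were put on the scale log2(FPKM + 1), and the genes averaging 1 FPKM or more over the 8 deposited libraries were fitted with limma 3.58.1 (R 4.3.3) in a model with 4 groups, with a mean-variance trend and Benjamini-Hochberg adjustment over 11874 genes in each comparison. The rest was computed with Python 3.11.15, pandas 2.3.3 and numpy 2.4.6, and drawn with matplotlib 3.10.9. Coordinates and overlaps come from GENCODE 29 (GRCh38). Whole fragments were recovered from the FPKM steps for 100% of 19578 rows (tolerance 0.01 fragment). The smallest whole numbers that fit were taken, so a factor common to all libraries of a row would be missed. Rows with few libraries above 0 are fitted easily, so the 100% says little about them. In data simulated with normal noise for EPZ against DMSO, 200 of 11874 genes were changed on the log2(FPKM + 1) scale. On that scale 83.6% of 1.5-fold, 94.0% of 2-fold and 98.5% of 4-fold changes were called, and 6.12% of calls were false. Far more genes are called in the real data, so these rates need not carry over. Genes named are the variant genes tested, the 12 replication-dependent genes with the highest mean FPKM and, in each comparison with DMSO, up to 5 called replication-dependent genes at either end. Genes named from the lists that act on histones and replication were taken from those with the smallest limma p in comparisons with DMSO. Their values need not be typical of their lists. SLBP, NPAT, EZH2 and CENPA were named as well, and others named are said to be so or belong to a pair or list. The members and lists were chosen with earlier results of these data known. Alternatives covered the pseudocount, the filter, the scaling, the replicate block and the omission of each library.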

Additional observations from a re-analysis of the deposited data

Results flagged for a closer look

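For 6 histone genes EPZ had an effect of opposite sign, past the limma threshold on both sides, without and with ENZ, and the interaction was itself past the threshold. Of all 11874 genes tested 340 (2.86%) met the same rule, and the 6 are of 44 histone rows tested. HIST1H2BJ had an interaction of -1.79, HIST1H2BF of -1.21, HIST1H2BK of -0.89, HIST3H2A of -0.74 and HIST1H2BN of -0.49. All of these were higher with EPZ than with DMSO and lower with Combination than with ENZ. H1F0, a variant gene, was the reverse, with an interaction of 0.56; its EPZ side was not called after quantile normalization (-0.11). For HIST1H2BF the Combination against ENZ side was not called without the first ENZ library (-0.18) or either Combination library (-0.29 and -0.29), and after median-of-ratios scaling (-0.15). For HIST1H2BN the EPZ side was not called without either DMSO library (0.19 and 0.25), the second EPZ library (0.13) or either Combination library (0.22 and 0.22), and its Combination against ENZ side was not called without the second ENZ (-0.26) or second Combination library (-0.24). For HIST3H2A the Combination against ENZ side was not called without the first ENZ (-0.16) or first Combination library (-0.28), nor after median-of-ratios scaling (-0.11) or quantile normalization (-0.0067), and for HIST1H2BK not after quantile normalization (-0.077).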

How the results depend on the processing

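Of the alternative values of single genes 4712 kept direction and call, 240 lost the call, 24 gained one and 23 changed sign; of the counts and sums 365 stayed within 1.5 times or 1 SD and 55 did not. The cause was not tested. Quantile normalization turned H1F0 (0.57; 0.085 with median-of-ratios scaling) and H3F3B (0.20) with Combination, H3F3B against ENZ (0.20) and EPZ (0.30), H2AFJ with ENZ (0.039) and EPZ (0.073), H2AFV against EPZ (0.035), H2AFY (0.065), H2AFZ (0.11), HIST1H2BK (0.16), HIST1H2BN (-0.058) and ASF1B (0.055) with ENZ, HIST1H2BK with Combination (0.082), and HIST1H2BC (0.094) and HIST1H4H (0.17) against EPZ; median-of-ratios scaling turned HIST1H2BF with Combination (0.051). Quantile normalization gave variant counts of 2 higher and 2 lower (ENZ), 3 lower (EPZ), 3 and 4 (Combination), 3 and 4 (against ENZ), 2 lower (against EPZ) and 3 and 2 (interaction), and 3 positive replication-dependent interactions. With a mean of at least 5 FPKM, which left 14 replication-dependent genes, the counts were 3 lower (ENZ), 13 and 0 (EPZ), 9 and 4 (Combination), 8 and 4 (against ENZ), 9 lower (against EPZ) and 10 negative interactions. Replication-dependent genes lower with EPZ numbered 1 with a pseudocount of 0.1, 4 with that pseudocount and a filter of 0.1 FPKM, and 1 with median-of-ratios scaling, which also gave 2 variant genes higher against ENZ and variant interactions of 2 and 3. Positive replication-dependent interactions numbered 0 with pseudocount 0.1, 2 with no filter and 0 with voom on recovered fragments, chosen after seeing the data, which called 5 higher with ENZ.

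With median-of-ratios scaling the summed FPKM was 451 (DMSO), 496 (ENZ) and 688 (Combination) for replication-dependent and 1196, 941 and 574 for variant genes. Leaving out 1 library at a time gave these ranges for replication-dependent genes: 6 to 10 higher and 4 to 6 lower with ENZ, 19 to 22 and 0 to 2 with EPZ, 13 to 16 and 10 to 11 with Combination, 10 to 14 and 10 to 12 against ENZ, 3 to 5 and 18 to 22 against EPZ, and 0 to 3 and 17 to 19 for the interaction. For variant genes they were 1 to 2 and 4 to 6, 1 to 1 and 6 to 7, 1 to 1 and 7 to 7, 1 to 2 and 7 to 7, 1 to 2 and 5 to 7, and 1 to 1 and 3 to 5. Signs changed within the ranges for H2AFV (-0.0018 to 0.15), HIST1H2AK (-0.029 to 1.28) and HIST1H4C (-0.15 to 0.63) with ENZ, and HIST1H2AG (-0.21 to 0.059), HIST1H2AL (-0.22 to 0.11) and HIST1H2BO (-0.23 to 0.56) with EPZ. Same-numbered libraries correlated at -0.015 to 0.109 after removal of group means, so the numbers were not taken to pair them; with the replicate block 23 replication-dependent genes rose with EPZ against 22 without it, 5 instead of 6 fell with ENZ, 15 instead of 16 rose with Combination and 19 instead of 17 interactions were negative, while 3 calls of single genes ended, those of HIST1H3H and HIST3H2A with ENZ and HIST1H2BL with Combination. The share of H3.3 genes was not run, since H3F3A is listed at 0. Groups of 2 and, below the filter, few fragments limit the precision.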
